A study of Mus musculus with 6 samples.

Results

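Antigen presentation was followed through 43 of the 18560 genes measured in single cells of the mouse olfactory bulb. They comprise the 23 genes whose symbol starts with H2-, the prefix of the mouse major histocompatibility complex (MHC), and 20 genes given by name, from the light chain B2m and the invariant chain Cd74 to genes that cut, transport and load peptides. Of these, 42 encode proteins of antigen presentation. H2-Ke6, an enzyme of steroid and fatty acid metabolism that lies within the complex, does not, and was taken in by its symbol alone.

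Dissociated olfactory bulbs of C57BL/6NJ mice aged 14 weeks were profiled by droplet 3′ RNA sequencing (10x Chromium v2), in which each captured transcript counts once as a unique molecular identifier (UMI). The 6 libraries were made from pooled animals, 2 for each of 3 groups: control (labelled as not manipulated), naris occluded (olfactory deprivation) and trained (olfactory enrichment), with 6 weeks of manipulation. Per the methods, trained mice were deprived of water and worked for a water reward, so training and water restriction cannot be told apart. The study's text calls the control mice naive, and also names the open side of occluded mice as the control, which the labels do not. The methods state that some cells of the olfactory epithelium were included, because that tissue lies against the front end of the bulb.

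The authors' annotation places 51426 cells in 38 clusters, grouped here into 12 classes by dropping the cluster number: monocytes (Mono), macrophages (Mf), microglia (MicroG), endothelial cells (EC), mural cells (Mural), mesenchymal cells (Mes), olfactory ensheathing cells (OEC, the glia that wrap the olfactory nerve), astrocytes (Astro), oligodendrocyte precursors (OPC), myelinating oligodendrocytes (MyOligo), neurons (Neuron) and red blood cells (RBCs). A library held 6705 to 10570 cells and 11841160 to 17065083 UMIs. Trained library 1 had the lowest median depth (1028 UMIs per cell against 1344.5 to 1723.5) and the highest median share of mitochondrial UMIs (14.4% against 9.25% to 11.6%). Xist, transcribed from the inactive X chromosome, had 0 to 5 UMIs in the libraries numbered 1 and 20000 to 27904 in those numbered 2, so sex and replicate number go together. The labels do not say how the 2 libraries of a group are related, and p-values measure only the spread between these libraries.

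MHC class I molecules pair a heavy chain with B2m and show peptides from a cell's own proteins to CD8 T cells. The peptides are cut by the proteasome, or by its immune form, pumped into the endoplasmic reticulum by Tap1 and Tap2 and loaded there by chaperones. Class II molecules show endosomal peptides to CD4 T cells, after the invariant chain Cd74 that fills their groove has been degraded by proteases and its remnant exchanged with the help of H2-DM. Neurons are known for low class I levels, and class II is mainly found on dendritic cells, B cells and activated macrophages, where Ciita switches it on.

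Sequence around the start was at hand for 35 of the 43 genes, as RefSeq windows of 300 bases (250 before the start and 50 after it) on GRCm38.p6. Stretches before the start are printed for 4 genes that hold an interferon-stimulated response element, for Psmb8, which holds a gamma-activated sequence, and for Psmb9 and Tap1, which are read in opposite directions from one short gap. Interferons are known to act on genes through motifs of the first 2 kinds. Capitals mark GAAANNGAAA in B2m and Ctss, the same motif on the opposite strand in H2-T22 and H2-T23, TTCNNNGAA in Psmb8 and CCAAT in the gap. The B2m stretch is chr2:122147528-122147577 on the plus strand, with its motif 139 to 130 bases before the start. The Ctss stretch is chr3:95526745-95526785 on the plus strand, with its motif 21 to 12 bases before the start. The H2-T22 and H2-T23 stretches are chr17:36042904-36042953 and chr17:36032796-36032845 on the minus strand, and that of Psmb8 is chr17:34198078-34198126 on the plus strand. The gap holds all 225 bases between the starts of Psmb9 and Tap1, chr17:34187331-34187555, written on the plus strand towards Tap1.
B2m: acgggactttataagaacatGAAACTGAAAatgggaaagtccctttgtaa
Ctss: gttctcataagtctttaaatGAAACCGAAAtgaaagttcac
H2-T22: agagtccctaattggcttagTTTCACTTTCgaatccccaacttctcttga
H2-T23: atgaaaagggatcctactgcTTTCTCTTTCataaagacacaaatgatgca
Psmb8: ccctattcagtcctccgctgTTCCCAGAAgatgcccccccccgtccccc
Psmb9-Tap1 gap: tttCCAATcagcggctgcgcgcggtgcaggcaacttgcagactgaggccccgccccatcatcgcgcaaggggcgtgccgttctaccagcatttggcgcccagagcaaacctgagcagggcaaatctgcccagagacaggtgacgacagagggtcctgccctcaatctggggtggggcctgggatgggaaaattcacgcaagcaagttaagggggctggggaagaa

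On either strand, GAAANNGAAA was in 6 of the 35 windows (H2-T22, H2-T23, B2m, Psme1, Erap1 and Ctss) and in 3.49% of 27025 windows of all genes. TTCNNNGAA was in 3 (H2-M3, Psmb8 and H2-DMb2) and in 8.42% of all windows. CCAAT was in 24 and in 38% of all windows. A match describes the letters of a window and not a site in use.

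Levels are in CPM, the UMIs of a gene scaled to a total of 1000000 UMIs of all genes after summing the cells of a class in a library. UMIs are tags at the 3′ end and carry no gene length, but capture differs between genes, so levels are compared between classes and not between genes. Clusters were made from these cells and genes, and the differences between classes are described without a test. Where 6 values follow each other they stand in the order control 1 and 2, naris occluded 1 and 2, trained 1 and 2, errors of levels are SD over the 6 libraries and those of log2 differences are standard errors.

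Class II was concentrated in the class labelled monocytes. The study lists CD74 as the marker of its monocyte cluster, so a high level of Cd74 there partly restates the label. Cd74, the invariant chain, was at 12894, 13071, 12195, 13423, 13157 and 12043 CPM there, with the libraries close together and far above every value of any other class. The next classes were Mf at 449, 521, 534, 560.5, 736 and 481 CPM and MicroG at 81.7, 115, 76.0, 65.9, 97.8 and 271 CPM. In Mes it was at 61.5 ± 62.4 CPM, with trained library 2 the highest at 183 CPM, and the 8 remaining classes had means of at most 8.89 CPM.

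The chains kept the same order. H2-Ab1, the beta chain of I-A, was at 5110.0, 4658, 4332, 5427, 4301 and 4762 CPM in Mono and 141 ± 61.7 CPM in Mf. H2-Aa, its alpha chain, was at 4085, 3859.6, 3891, 3773, 3628 and 3606 CPM in Mono and 98.1 ± 26.1 CPM in Mf. H2-Eb1, the beta chain of I-E, was at 3582 ± 225 CPM in Mono and 55.4 ± 27.4 CPM in Mf. These 3 genes thus share one pattern, whereas H2-Eb2, a further I-E beta gene, had 3 UMIs in all cells. Summed over the 4 chains, Mono was at 12154 ± 567 CPM and Mf, the next of the 38 clusters, at 294 ± 98.2 CPM, higher in Mono in 6 of 6 libraries with no overlap. Clusters Mes2 (97.3 ± 119 CPM) and MicroG1 (95.9 ± 106 CPM) followed, and their ranges overlap.

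**Figure D1:**
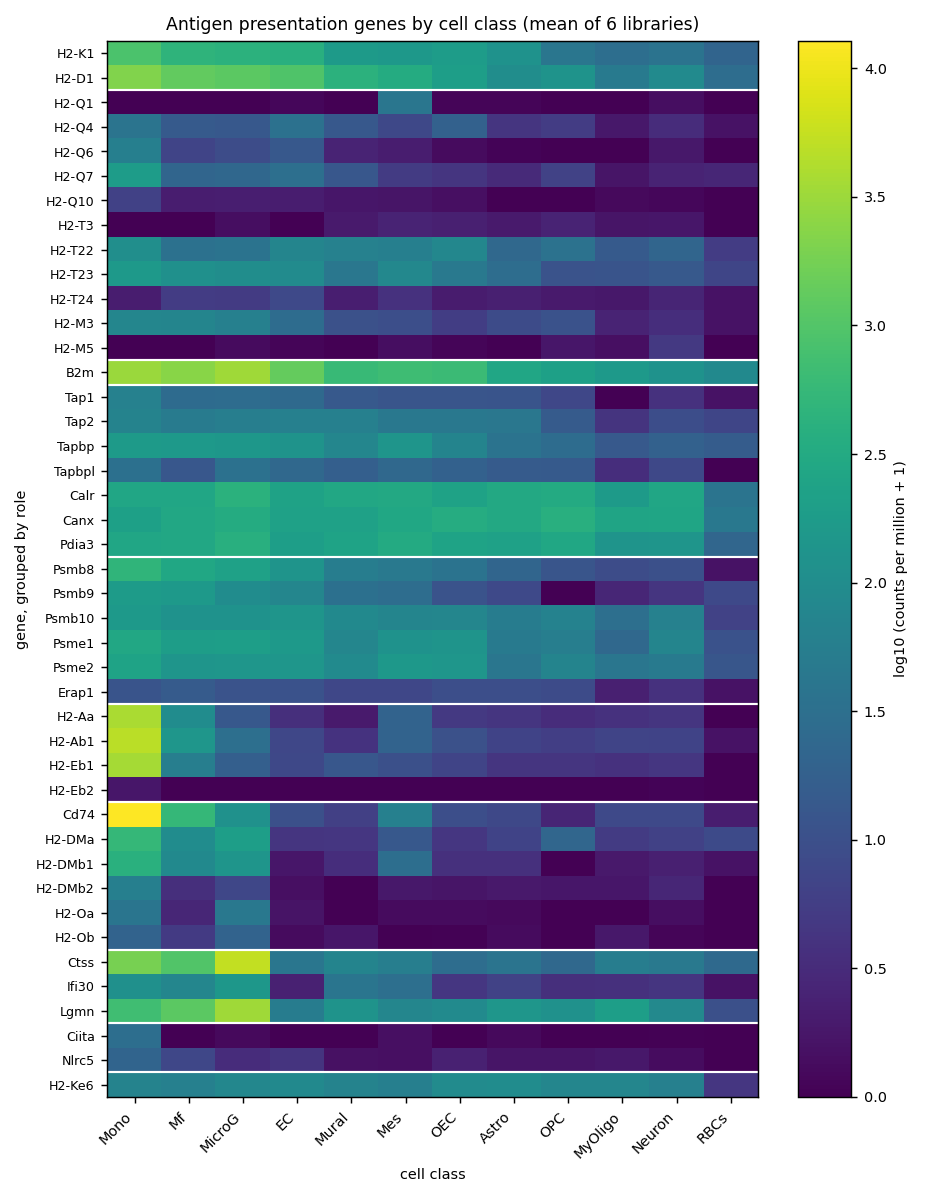
Level of the 43 genes (rows, grouped by role) in 12 cell classes (columns), as log10 of CPM + 1, mean of 6 libraries. Class II chains and Cd74 stand out in Mono (12797 CPM for Cd74), Ctss and Lgmn in MicroG (5421 and 3346 CPM), and class I genes across Mono, Mf, MicroG and EC.

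The genes that edit class II peptides were less restricted than the chains. H2-DMa, the alpha chain of the editor H2-DM, was at 554, 683, 521, 602, 388 and 546 CPM in Mono, 180.4, 209, 203, 209.7, 170.0 and 207 CPM in MicroG and 97.2 ± 19.0 CPM in Mf. MicroG lay above Mf with no overlap, the reverse of their order for Cd74. Its partner H2-DMb1 was at 398 ± 101 CPM in Mono, 138 ± 14.7 CPM in MicroG and 88.9 ± 33.9 CPM in Mf, and the latter ranges overlap. H2-Oa, a subunit of H2-O, which holds H2-DM back, was at 42.9, 46.1, 38.5, 41.1, 38.6 and 47.4 CPM in MicroG and 1.75 ± 2.70 CPM in Mf, again with no overlap. In Mono it was at 23.5, 31.4, 13.4, 8.92, 24.3 and 128 CPM, where trained library 2 alone is high. H2-Ob, the other subunit, was at 19.0 ± 2.85 CPM in MicroG and 19.6 ± 5.77 CPM in Mono, with overlapping ranges.

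The endolysosomal proteases peaked in microglia. Ctss, the cathepsin that trims Cd74, was at 5232, 5502, 5698, 5785, 4858 and 5449 CPM in MicroG, 1837 ± 288 CPM in Mono and 997 ± 156 CPM in Mf. Lgmn, an asparaginyl endopeptidase, was at 3359, 3532, 3588, 3365, 2760.2 and 3475 CPM in MicroG, 1174 ± 166 CPM in Mf and 708 ± 145 CPM in Mono. For both genes every MicroG library lies above every other class. Ifi30, a lysosomal thiol reductase, was at 146 ± 27.5 CPM in MicroG and 115 ± 53.8 CPM in Mono, with overlapping ranges. Ciita, the class II transactivator, had 47 UMIs, 40 of them in Mono (29.5 ± 21.8 CPM). Nlrc5, the corresponding activator of class I genes, was at 19.8 ± 10.9 CPM in Mono and 6.61 ± 4.39 CPM in Mf.

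**Figure D2:**
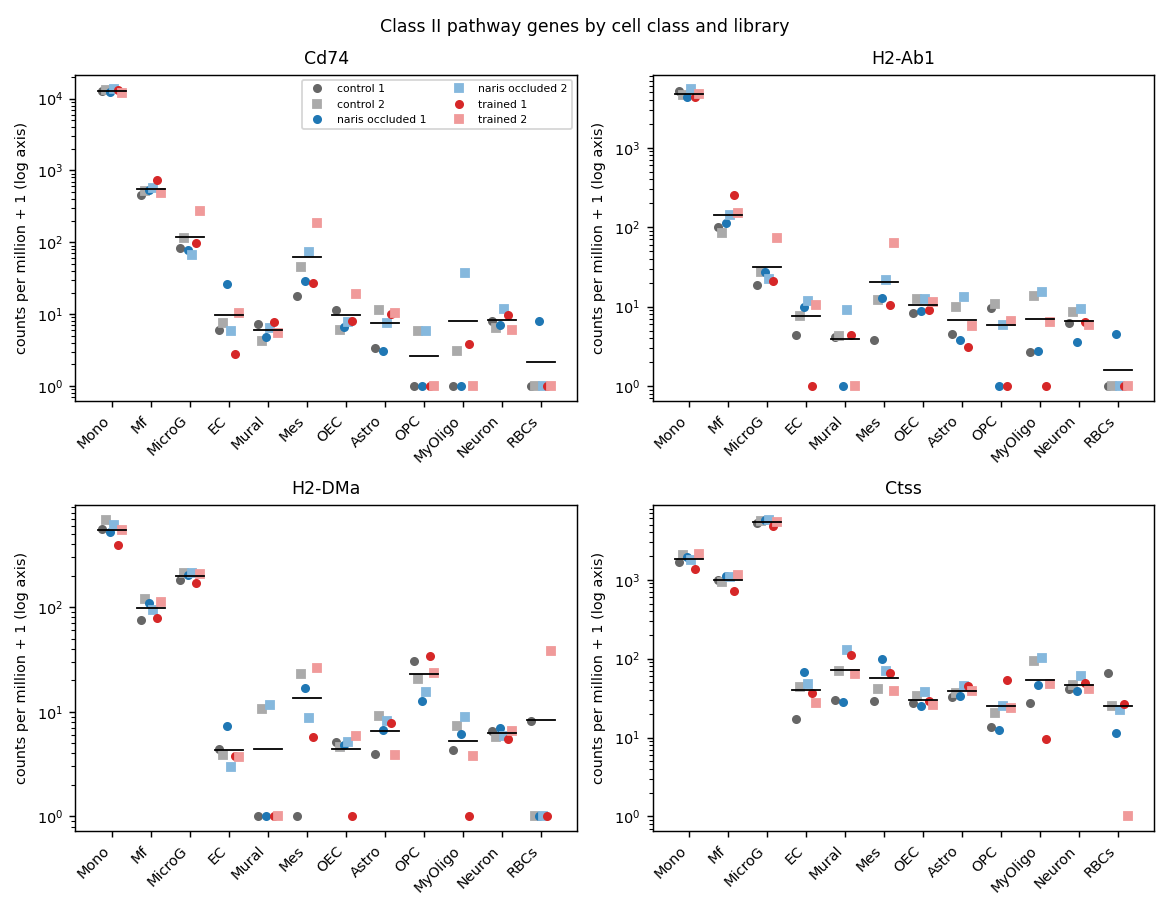
Level (CPM + 1, log axis) of Cd74, H2-Ab1, H2-DMa and Ctss in 12 cell classes. Points are the 6 libraries (grey control, blue naris occluded, red trained; circles replicate 1, squares replicate 2) and the black line is their mean; Cd74 lies between 12043 and 13423 CPM in Mono, and Ctss is highest in MicroG.

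The label Mono covers cells of several kinds. Of the marker sums set out for each type, monocyte markers were at 7765 CPM, with Mf next at 6496 CPM, neutrophil markers at 11335 CPM, with Mes next at 14.4 CPM, and T and NK cell markers at 952 CPM, with Mf next at 3.10 CPM. Dendritic cell markers were at 249 CPM and little lower in Mf, at 222 CPM, and B cell markers were at 331 CPM, below Mural at 521 CPM. Of 623 cells, 344 (55.2%) had 5 or more Cd74 UMIs, a limit chosen after seeing the data, and these held 99.3% of the Cd74 UMIs of the class. Of the rest, 137 had a UMI of the T or NK cell genes Cd3d, Cd3e, Cd3g or Nkg7, 35 had 5 or more UMIs of the neutrophil genes S100a8 and S100a9, and 107 had neither. Among the 344 cells, Lyz2 and Ccr2 of the monocyte list had a UMI in 87.8% and 34.9%, against 37.6% and 17.6% of the rest. Lyz2 was also found in 95.5% of Mf cells under 5 Cd74 UMIs. Ly6c2, Plac8 and Chil3 of that list went the other way, at 2.03%, 4.07% and 0% against 22.9%, 15.8% and 6.09%. The macrophage marker Mrc1 was found in 37.8% against 6.45%, and the dendritic marker Flt3 in 3.49% against 0%. Median depth was 2023 UMIs in the 344 cells and 1642 in the rest.

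Class I levels across this division are given as a description. The division was made on Cd74, a class II gene, so the difference in class II genes follows from the choice of cells. H2-K1 was at 790 CPM in cells with 5 or more Cd74 UMIs and 1070 CPM in the rest of Mono, H2-D1 at 2161 and 2050 CPM and B2m at 3494 and 2616 CPM, while H2-Ab1 was at 7900 and 105 CPM. In the same order H2-D1 was detected in 88.1% and 86.4%, H2-K1 in 62.2% and 67.7%, B2m in 92.4% and 88.2% and the immunoproteasome gene Psmb8 in 56.7% and 50.5%. For class II the shares were far apart, at 96.2% and 14.3% for H2-Ab1, 72.4% and 14.3% for H2-DMa and 88.1% and 30.5% for Ctss. Ciita was detected in 9.01% of the first cells and in none of the 279 others.

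In microglia much of the Cd74 count lay in few cells. A Cd74 UMI was found in 7.30% of 4001 microglia (median 1719 UMIs per cell) and in 0.680% of neurons (median 1013), which are taken as the background of free RNA. With every cell thinned to 500 UMIs these shares were 3.05% and 0.324%, against 12.4% of Mf and 59.7% of Mono cells. The 31 microglia with 5 or more Cd74 UMIs held 57.3% of the microglial total. They were spread as 2, 10, 3, 0, 7 and 9 cells over the libraries, and 1 cell of trained library 2 carried 114 UMIs. The microglial marker P2ry12 had a UMI in 71.0% of these cells. They were deeper than other microglia, with a median of 3144 against 1716 UMIs. Of the 494 Cd74 UMIs in these cells, 269 were in trained library 2. With all libraries pooled, Cd74 was at 119 CPM in MicroG and 51.5 CPM without these cells, against 7.30 CPM in Neuron.

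Class I was broad and graded. B2m, the light chain, was at 3208, 3844, 3234, 3229.8, 2881 and 3773 CPM in MicroG and 2674, 4089.8, 2572, 2462, 2153 and 4583 CPM in Mono, and these ranges overlap. It was at 2348 ± 366 CPM in Mf, 1388 ± 261 CPM in EC, 682 ± 109 CPM in Mes, 622 ± 93.4 CPM in OEC, 581 ± 48.0 CPM in Mural and 265 ± 34.8 CPM in Astro. Among nucleated classes it was lowest in Neuron, at 122 ± 16.9 CPM. This order held for B2m and not for the sum of 14 class I genes. That sum was 267 ± 70.2 CPM in MyOligo and 298 ± 37.9 CPM in Neuron, with overlapping ranges.

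The classical heavy chains were highest in Mono. H2-D1 was at 1831, 2378, 1952, 2074, 1449.8 and 2881 CPM in Mono, 1303 ± 205 CPM in Mf, 1161 ± 235 CPM in MicroG, 947 ± 178 CPM in EC and 92.1 ± 17.1 CPM in Neuron. H2-K1 was at 716, 1192, 682, 736, 661 and 1349 CPM in Mono, 467 ± 93.2 CPM in Mf, 433 ± 82.1 CPM in MicroG, 388 ± 59.4 CPM in EC and 36.2 ± 5.57 CPM in Neuron. From Mf to MicroG and from MicroG to EC the ranges of both genes overlap. In Mono the class I sum of 14 genes was 5809, 8343, 5705, 5855, 4725 and 9745 CPM, highest in control library 2 and trained library 2. Neutrophil markers were lowest in those libraries, at 15965, 2329, 14722, 8312, 24234 and 2449.9 CPM, and their part in the result was not tested.

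Clusters of one class differed in class I. The sum was 3300.5 ± 534 CPM in EC1 and 1801 ± 405 CPM in EC2, with no overlap. EC2 was the shallower cluster, with median depths of 706 to 870.5 UMIs per cell against 1401.5 to 1808.5 in EC1, and median mitochondrial shares of 14.001% to 19.1% against 7.44% to 9.47%. The sum was 2157 ± 426 CPM in Mural1 and 953 ± 78.5 CPM in Mural2, again apart, where Mural2 had median depths of 1194 to 1614 UMIs against 2928.5 to 4182 and mitochondrial shares of 8.60% to 11.05% against 6.81% to 7.90%. Over the clusters of microglia it was 5353 ± 887, 5313 ± 570.4 and 4224 ± 625 CPM, with overlapping ranges, and the last of these had median depths of 662.5 to 841.5 UMIs against at least 1666 in the others. The part of depth and mitochondrial share in these differences was not tested. Among neuronal clusters it ran from 149 ± 50.02 CPM in Neuron4 to 752 ± 178 CPM in Neuron2 and 1005 ± 327 CPM in Neuron11. Neuron2 held 68 cells, with 5 in control library 2 and 5 in trained library 2. In Neuron11 the endothelial marker Cldn5 was at 1832 ± 748 CPM (6386 ± 842 CPM in EC). Cldn5 was also found in the ensheathing cell cluster OEC2, at 1215 ± 214 CPM. Slco1a4, another endothelial marker, was at 946 ± 333 CPM in Neuron11 and 8.27 ± 4.39 CPM in OEC2. The part of such cells in the class I sum of Neuron11 was not tested. No neighbours in the order of all 38 clusters were separated beyond their ranges.

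The balance of the classical chains differed in Astro and OEC from that in most classes. H2-K1 made up 54.0% (49.3% to 57.2%) of the UMIs of H2-K1 and H2-D1 in Astro, with the lowest and highest library in brackets, and 47.7% (43.9% to 51.4%) in OEC. The share was 29.2% (27.1% to 31.0%) in EC, 29.9% (25.9% to 33.4%) in Mono, 27.1% (25.5% to 30.2%) in MicroG, 26.3% (22.9% to 30.9%) in Mf and 28.2% (23.7% to 30.7%) in Neuron. Every library of Astro and OEC thus lies above every library of these 5 classes. In other glia the balance lay lower or could not be told apart: the share was 24.02% (18.9% to 34.4%) in OPC and 37.2% (18.6% to 60.0%) in MyOligo, the latter from 242 UMIs and with a range that overlaps both. H2-K1 and H2-D1 are close paralogs, as are H2-Q6 and H2-Q7, and reads that match both copies may have been split or dropped, which makes their counts uncertain.

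**Figure D3:**
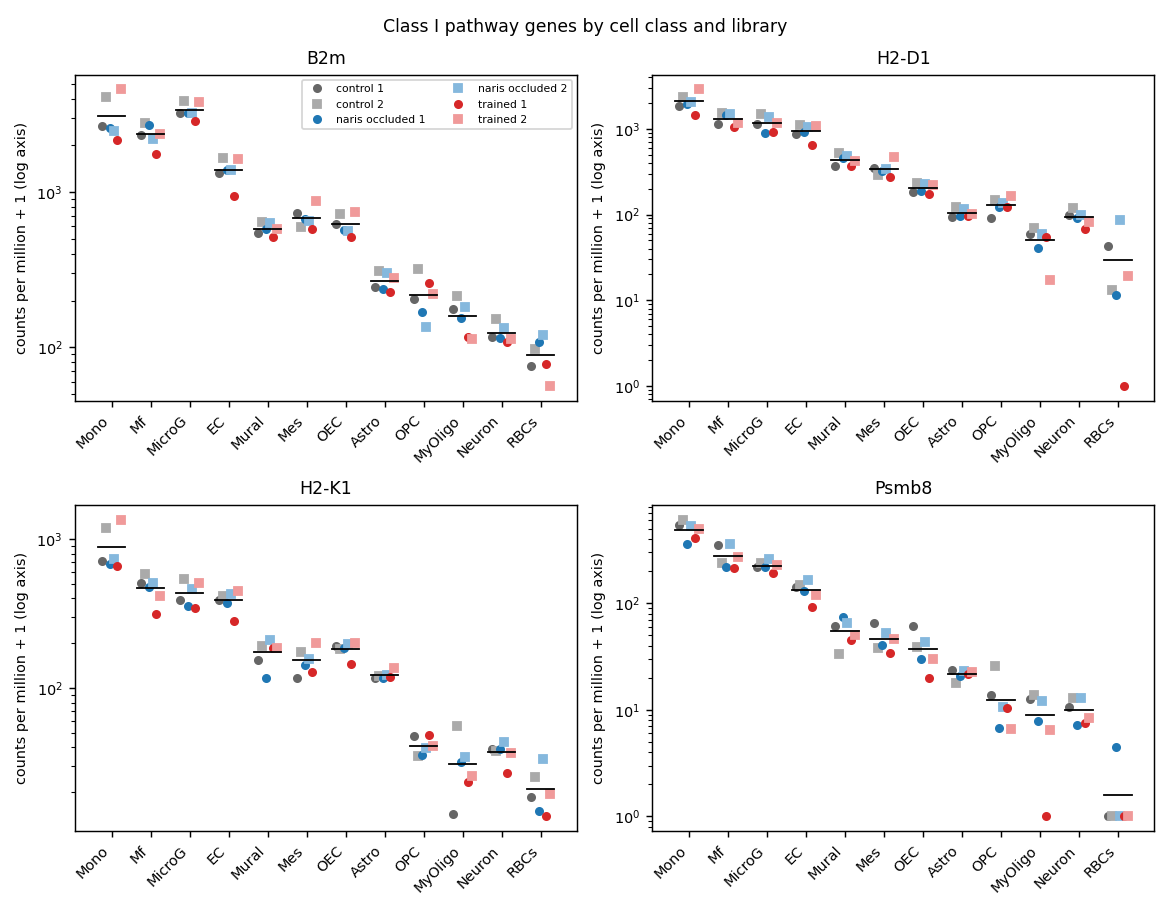
Level (CPM + 1, log axis) of B2m, H2-D1, H2-K1 and Psmb8 in 12 cell classes, with points for the 6 libraries (grey control, blue naris occluded, red trained; circles replicate 1, squares replicate 2) and a black line at their mean. The genes are high in Mono, Mf, MicroG and EC, and H2-K1 is at 36.2 CPM in Neuron.

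Of the other heavy chains, those named here had their highest class mean in Mono, and the next class is given second. H2-T23, which encodes the NK cell ligand Qa-1, was at 158 ± 29.5 CPM in Mono and 114 ± 34.9 CPM in Mf. H2-T22, a ligand of gamma delta T cells, was at 107 ± 12.7 CPM in Mono and 77.7 ± 13.7 CPM in OEC. Its highest single cluster was OEC2, at 117 CPM. H2-M3, which presents formylated peptides, was at 76.8 ± 26.9 CPM in Mono and 74.2 ± 16.5 CPM in Mf. H2-Q4 was at 37.1 ± 19.6 CPM in Mono and 33.3 ± 7.98 CPM in EC, and H2-Q7, a Qa-2 gene, at 182 ± 97.3 and 30.7 ± 13.8 CPM.

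A pair of sparse heavy chain genes, singled out after seeing the data, had other patterns. H2-Q1 had 101 UMIs in 86 cells, 83 of the UMIs in Mes, where it was at 36.1, 36.9, 15.8, 54.0, 44.9 and 49.8 CPM. Within that class it was at 59.2 ± 18.6 CPM in Mes1 and 3.79 CPM in Mes2. H2-M5 had 130 UMIs, 121 of them in Neuron, where it was at 3.38, 3.85, 4.29, 5.21, 2.75 and 3.71 CPM, and its highest cluster was Neuron1 at 10.9 ± 2.17 CPM. Both genes were seen in those classes in all 6 libraries.

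Most genes of peptide supply were highest in Mono. Psmb8, an immunoproteasome subunit induced by interferon, was at 538, 607, 357, 531, 406 and 500.1 CPM in Mono, 274 ± 65.2 CPM in Mf, 224 ± 21.9 CPM in MicroG, 132 ± 25.1 CPM in EC, 36.2 ± 14.2 CPM in OEC and 8.92 ± 2.62 CPM in Neuron. Psmb10, another such subunit, spanned less, from 159.6 ± 31.8 CPM in Mono and 140.1 ± 17.5 CPM in EC to 63.6 ± 5.10 CPM in Neuron. Psmb9, the remaining one, was at 179.6 ± 42.2 CPM in Mono and 3.34 ± 1.07 CPM in Neuron. Psme1 and Psme2, which form an activator of the proteasome, were at 289 ± 66.3 and 242 ± 86.4 CPM in Mono.

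The make-up of the proteasome also differed between classes. The 3 immune subunits made up 65.8% of the UMIs of 6 catalytic subunits (with the constitutive Psmb5, Psmb6 and Psmb7) in Mono, 58.7% in Mf, 48.7% in MicroG, 34.0% in EC, 15.9% in OEC, 10.24% in Neuron, 7.58% in OPC and 5.09% in MyOligo. The mean class I sum had another order, with MicroG (5204 ± 660 CPM) above Mf (4385 ± 619 CPM), whose ranges overlap, and OPC (455 ± 82.7 CPM) above Neuron (298 ± 37.9 CPM), whose ranges do not. Within the immune subunits, Psmb8 and Psmb9 made up 81.0% (76.0% to 83.2%) in Mono and 16.0% (12% to 20.5%) in Neuron, the rest being Psmb10.

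The transporter genes differed in spread. Tap1 was at 61.9 ± 28.6 CPM in Mono and 27.2 ± 7.12 CPM in MicroG, the next class. Tap2 was at 67.8 ± 27.4 CPM in Mono and 60.9 ± 9.62 CPM in EC, with overlapping ranges, and its highest single cluster was OEC1, at 68.7 CPM. Tapbp, the tapasin that ties class I molecules to the transporter, was at 170.0 ± 43.2 CPM in Mono, 158 ± 28.1 CPM in Mf and 18.0 ± 2.52 CPM in Neuron. The single cluster with the highest Tapbp mean was Mes2, at 196 CPM.

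The general chaperones of the endoplasmic reticulum, which fold many proteins besides class I, had another pattern. Calr, Canx and Pdia3 were at 411 ± 36.3, 329.6 ± 23.2 and 393 ± 38.5 CPM in MicroG and at 265 ± 33.6, 255 ± 19.1 and 140.1 ± 12.7 CPM in Neuron. All 3 had their highest mean in a neuronal cluster, Neuron15 (861 cells), where Calr was at 807, 939, 746, 1054, 701 and 815 CPM. Summed, they were at 2066 ± 240.2 CPM there and 1232 ± 107 CPM in Neuron7, the next cluster, with no overlap. Median depths of the libraries were 742 to 874 UMIs per cell in Neuron15 and 606 to 791 in Neuron7. Median mitochondrial shares were 13.5% to 21.2% and 28.2% to 31.3%, and the part of depth and mitochondrial share was not tested. H2-Ke6 was at 59.2 ± 19.1 CPM in Mes and 99.6 ± 6.30 CPM in Astro, its lowest and highest nucleated classes.

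Likeness of pattern was measured as Pearson's r of log2(CPM + 1) over the 38 clusters, on means of 6 libraries and among 14253 genes. The clusters share libraries and differ in depth, and these values are a description. The member most like Cd74 was H2-Ab1 (r = 0.905), and the 10 genes most like it outside the list were Ccl12, Cd52, Lyz2, Rnase6, Cd200r4, Cd48, Gm26740, Tnf, Phf11a and Bcl2a1d (r = 0.880 to 0.847). The member most like H2-K1 was B2m (r = 0.951), and the 10 outside the list were Cyba, Trim12c, Trim12a, Bst2, Irf1, Parp14, Il10rb, Lgals3bp, Ctsh and Rnaset2b (r = 0.935 to 0.904).

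The groups were compared to ask whether loss or enrichment of smell went with a difference in these genes in any class. UMIs summed per class and library were tested with edgeR's quasi-likelihood test, adjusted by Benjamini-Hochberg over all genes of a class, and called at an adjusted p under 0.05. Of 516 pairs of a member and a class, 266 had enough counts to be tested in each contrast, and none of them was in red blood cells. The contrasts share libraries. With 2 libraries against 2, an exact permutation test of a single value cannot give a p below 0.333. In sums over a class, fewer expressing cells and less RNA per cell cannot be told apart.

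No member was called between naris occluded and control, where 0.031% of all tests were called (26 of 83840). At an unadjusted p under 0.05 there were 18 of the 266 pairs, 4 higher and 14 lower, or 6.77% against 4.85% of the tests of all genes, and DESeq2 gave 0 calls and 4 such p-values. The smallest edgeR adjusted p was 0.541. Median log2 differences by class ran from -0.16 in Mes to 0.11 in Mf. Class II chains in Mono differed by -0.03 to 0.04 on the log2 scale. The smallest unadjusted p was that of Ctss in Mes, at 27.8, 40.6, 98.6, 69.5, 63.8 and 37.3 CPM, with both occluded values above the other 4 (log2 difference 1.32 ± 0.37, edgeR adjusted p 0.999). The sum of 7 microglial markers in Mes was 142, 236, 369, 226, 234 and 212 CPM, lowest and highest in the same libraries as Ctss, and its part in the result was not tested. In OEC 6 of 31 members tested were lower at an unadjusted p under 0.05 (H2-M3, H2-T22, H2-T23, Tap1, Psmb8 and Psmb10), or 19.4% against 4.12% of the genes of that class, all with an edgeR adjusted p of 0.998 and none at such a p in DESeq2. Control library 1 was the highest library for all 6.

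No member was called between trained and control, where 0.0584% of all tests were called (49 of 83840). At an unadjusted p under 0.05 there were 37 of the 266 pairs, 7 higher and 30 lower, or 13.9% against 6.59% of the tests of all genes, and DESeq2 gave 0 calls and 10 such p-values. Several classes leaned low: 22 of 25 members had a lower value than the control in EC (median log2 difference -0.19), 25 of 31 in Neuron (-0.19), 23 of 31 in OEC (-0.15), 11 of 13 in MyOligo (-0.22) and 15 of 19 in Mural (-0.12), while 14 of 25 were higher in Astro (0.03). The medians of all genes in EC, Neuron and OEC were 0.00196, 0.00665 and -0.00254. In EC trained library 1 was the lowest: its class I sum was 2079 CPM, with 3448 CPM in trained library 2 and 2853 to 3495 CPM over all libraries but trained 1. Trained library 1 is the shallowest and has the highest mitochondrial share, and their part in the result was not tested.

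H2-D1 in Neuron had the smallest adjusted p among members. It was at 98.0, 118, 91.0, 97.4, 67.6 and 80.7 CPM, with both trained values below the other 4 (log2 difference -0.56 ± 0.12, edgeR adjusted p 0.134). The class pools 16 clusters whose shares differ between libraries: Neuron6, with the widest span in percentage points, held 14.8, 13.9, 8.30, 5.92, 24.3 and 7.52% of its cells. Cluster Neuron11 held 951 of the 22501 cells of the class. Of the 2898 H2-D1 UMIs of the class, 148, 166, 129, 119, 79 and 112 lay in Neuron11. Endothelial and ensheathing cell markers were found in Neuron11 too, and its part in the level and the difference of the class was not tested. Within clusters, both trained values of H2-D1 were below both controls in 10 of 16. The clusters share libraries and the share of all genes with this order is not given, so the count is a description. B2m in MyOligo was at 174, 214, 152, 179.6, 115 and 112 CPM, again with the trained values lowest (log2 difference -0.77 ± 0.20, edgeR adjusted p 0.256). In OEC all 5 genes of the immunoproteasome and the transporter were lower at an unadjusted p under 0.05, with both trained values below both controls, among 9 of 31 members at such a p (29.0% against 6.61% of the genes of that class). The same 5 genes had lower values than the control in EC, MicroG and Neuron too, 3 of 5 at such a p in each, where 8.43%, 4.79% and 10.43% of all genes were. In Astro and Mono 3 of 5 had higher values, and in Mf 2 of 4, with none of the 5 genes at such a p in these 3 classes. In OEC Psmb8 was at 60.3, 37.9, 29.2, 41.8, 19.0 and 29.3 CPM (log2 difference -1.04 ± 0.25, edgeR adjusted p 0.193), and Psmb10 at 106, 79.1, 72.4, 81.1, 60.0 and 61.5 CPM (log2 difference -0.61 ± 0.14, edgeR adjusted p 0.193). Control library 1 was the highest for both. OEC1 and OEC2, the clusters with the highest summed level of these 5 genes, made up 39.5, 35.6, 37.7, 35.9, 25.2 and 32.6% of OEC cells, with the trained libraries lowest. Within clusters, both trained values of the sum were below both controls in 4 of 5, those of Psmb8 in 3 and those of Psmb10 in 3, again as a description. Tap1, at 18.5, 14.3, 6.78, 12.8, 5.05 and 8.45 CPM (log2 difference -1.29 ± 0.33, edgeR adjusted p 0.237), and Tap2, at 57.6, 43.3, 38.9, 55.3, 28.8 and 32.2 CPM (log2 difference -0.73 ± 0.19, edgeR adjusted p 0.270), did not pass either.

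In MicroG 8 of 34 members had an unadjusted p under 0.05 between trained and control mice (23.5% against 4.79% of the genes of that class), with edgeR adjusted p-values of 0.924 to 0.957. Of these, Tap1, Psmb9, Psmb10 and Ifi30 were lower and Cd74, H2-Aa, H2-Ab1 and H2-Eb1 higher. Cd74 was at 81.7, 115, 76.0, 65.9, 97.8 and 271 CPM, and only trained library 2 was above the others. In that library 269 of its 331 Cd74 UMIs lay in 9 of 632 cells, and without it the log2 difference was -0.05. The 3 chains were likewise highest in trained library 2, at 37.6, 71.2 and 44.99 CPM. In Mf H2-Ab1 was at 100.4, 84.5, 112, 140.1, 256 and 151 CPM, with both trained values above all others (log2 difference 1.12 ± 0.35, edgeR adjusted p 0.520).

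No member was called between trained and naris occluded, where 0.434% of all tests were called (364 of 83840). At an unadjusted p under 0.05 there were 36 of the 266 pairs, 10 higher and 26 lower, or 13.5% against 9.03% of the tests of all genes, and DESeq2 gave 0 calls and 5 such p-values. The smallest edgeR adjusted p was that of H2-Q4 in Neuron, at 2.15, 3.62, 2.80, 3.21, 0.810 and 1.39 CPM (log2 difference -1.43 ± 0.51, adjusted p 0.177).

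**Figure D4:**
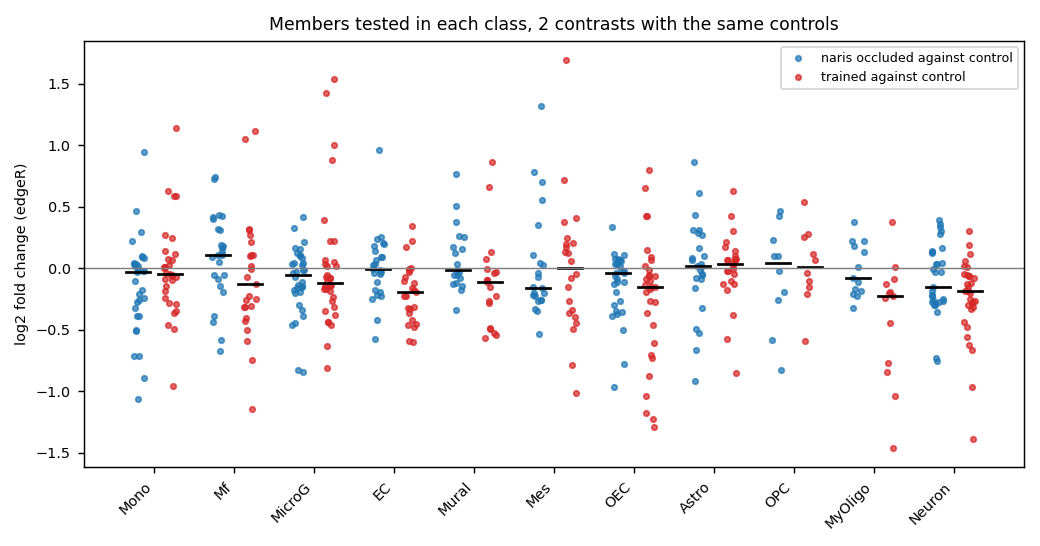
Log2 difference of each member tested in 11 cell classes, naris occluded against control (blue) and trained against control (red), with black bars at the medians. For trained against control the medians run from -0.22 in MyOligo to 0.03 in Astro, with -0.19 in EC and in Neuron, and no member was called.

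The filter on low counts and single libraries decided some of these results. With every gene kept, edgeR called 1, 11 and 7 pairs of a member and a class in the contrasts of naris occluded with control, trained with control and trained with naris occluded, where 0.165%, 0.311% and 0.765% of all tests were called. Among the calls of trained against control were the 5 OEC genes named above (adjusted p 7.98e-07 for Psmb8), H2-D1 in Neuron, and the 4 class II genes in MicroG that were high in trained library 2. Psmb8 has the same counts in both fits (edgeR adjusted p 0.193 with the filter). Keeping every gene adds genes of few counts to the estimate of spread, and calls among all genes rose from 49 to 580 in this contrast. Leaving out a library also gave calls. Group and replicate number, which goes with Xist, are no longer balanced in such a fit. Between naris occluded and control there was 1 without control library 2 and 1 without naris occluded library 1, where 0.0489% and 0.099% of all tests were called. Between trained and control there were 3 without trained library 1 and 5 without trained library 2 (0.0865% and 0.435% of all tests). Between trained and naris occluded there were 1, 4 and 3 without naris occluded library 1, trained library 1 and trained library 2 (0.507%, 0.161% and 1.23% of all tests).

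Other genes of the pathway were counted in 5 lists: 17 regulators of MHC genes (the most counted being Ifngr1, Ifnar2 and Jak1, of interferon signalling), 5 genes of the constitutive proteasome and its other activators, 11 of other proteases and trafficking, 3 CD1 and MR1 genes and 5 of costimulation. None was called by edgeR against the control. Of 131 tests of regulators, 9 had an unadjusted p under 0.05 for naris occluded and 9 for trained, which is 6.87% in each, near the 4.85% and 6.59% of all genes. Between trained and naris occluded mice 3 calls were made in 311 tests of the 5 lists (0.965%, against 0.434% of all tests). At an unadjusted p under 0.05 there were 31 of the 311 (9.97% against 9.03% of all genes). Other proteases and trafficking had 18 of 111 (16.2%) and the regulators 9 of 131 (6.87%). Psme4, a proteasome activator, rose in Neuron by 1.00 ± 0.13 (log2, edgeR adjusted p 0.00194). In EC the cathepsin inhibitor Cst3 had a log2 difference of -0.48 ± 0.09 (edgeR adjusted p 0.0280) and the lysosomal membrane gene Cd63 one of -0.81 ± 0.16 (edgeR adjusted p 0.0280). All 6 ensheathing cell markers were found in EC, and their sum was 3251, 2435, 4259, 4123, 2413 and 2245 CPM, highest in the naris occluded and lowest in the trained libraries, and its part in these calls was not tested.

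Single clusters were also fitted, 37 of them with 557 tests of a member. edgeR called 0 members between naris occluded and control (0.0808% of all tests called), 3 between trained and control (0.124% of all tests) and 6 between trained and naris occluded (0.536%). In the same order 38, 65 and 69 member tests had an unadjusted p under 0.05, and the share of all genes at such a p is not given. All of the calls fell in clusters Neuron11 and OEC2, which were singled out after seeing the data. Cluster numbers are those of the deposited annotation, and for some clusters, both of these among them, the study's text uses other numbers.

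In Neuron11 (951 cells) 6 of 18 members tested fell in trained against naris occluded mice, where 7.14% of the genes of the cluster were called and 4.04% were called lower. H2-K1 was at 184, 168, 236, 294, 83.3 and 121 CPM (log2 difference -1.42 ± 0.22, edgeR adjusted p 2.76e-05). H2-D1 was at 299, 465, 389.5, 422, 146 and 221 CPM (log2 difference -1.19 ± 0.23, edgeR adjusted p 0.000528). B2m was at 318, 518, 459, 443, 244 and 259 CPM (log2 difference -0.89 ± 0.22, edgeR adjusted p 0.00725). For these genes both trained values lie below all other libraries. Tapbp was at 56.6, 50.4, 90.6, 53.2, 27.8 and 31.6 CPM (log2 difference -1.34 ± 0.35, edgeR adjusted p 0.0119), and Tap2 at 50.6, 36.4, 75.5, 53.2, 31.5 and 27.7 CPM (log2 difference -1.18 ± 0.36, edgeR adjusted p 0.0365). H2-Q4 was at 4.05, 16.8, 30.2, 28.4, 5.56 and 5.93 CPM (log2 difference -2.34 ± 0.75, edgeR adjusted p 0.0450), from 2, 6, 10, 8, 3 and 3 UMIs. The chaperones Calr, Canx and Pdia3 were not called, with log2 differences of 0.30, -0.22 and -0.38. Against the control 1 member, H2-D1, was called (log2 difference -1.10 ± 0.22, edgeR adjusted p 0.00676), where 0.617% of genes were called and 0.454% were called lower. A fit with the replicate number as a block called 3 here (0.955% of genes), adding B2m (log2 difference -0.76 ± 0.19, edgeR adjusted p 0.0225) and H2-K1 (log2 difference -0.87 ± 0.23, edgeR adjusted p 0.0262). The count of 6 became 2 without naris occluded library 1, 3 without naris occluded library 2 and 3 by DESeq2, where 1.67%, 2.63% and 2.49% of genes were called.

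Markers of other cell types moved with this result. All 6 endothelial markers (Cldn5, Pecam1, Slco1c1, Flt1, Slco1a4 and Ly6c1) were found in Neuron11, and their sum was 4759, 4496, 7452, 5214, 2956 and 2611 CPM, a mean of 4581 against 16604 in the EC class and 536 in the Neuron class. The sum of 6 ensheathing cell markers was 4130.1, 3868, 4716, 4484, 2861 and 2371 CPM and that of 6 neuronal markers 8108, 8476, 7391, 6711, 9315 and 10476 CPM. The trained libraries were lowest for the former lists and highest for the neuronal one. Since markers of several types lie together in it, the cluster is called by its number. Cells with no endothelial marker UMI, a division made after seeing the data, made up 16.4, 25.7, 19.8, 12.03, 32.3 and 27.8% of it. In those cells H2-D1 was at 117, 141, 130.4, 87.9, 74.4 and 92.4 CPM, from 5, 9, 4, 2, 7 and 7 UMIs. Both trained values lie below both controls, and trained and occluded ranges overlap. H2-K1 had 6, 5, 0, 3, 3 and 2 UMIs there (140, 78.5, 0, 132, 31.9 and 26.4 CPM), with the same relations, and B2m had 4, 7, 0, 3, 9 and 7 UMIs (93.6, 109.8, 0, 132, 95.7 and 92.4 CPM), with all ranges overlapping. The part of these markers in the result was not tested.

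**Figure D5:**
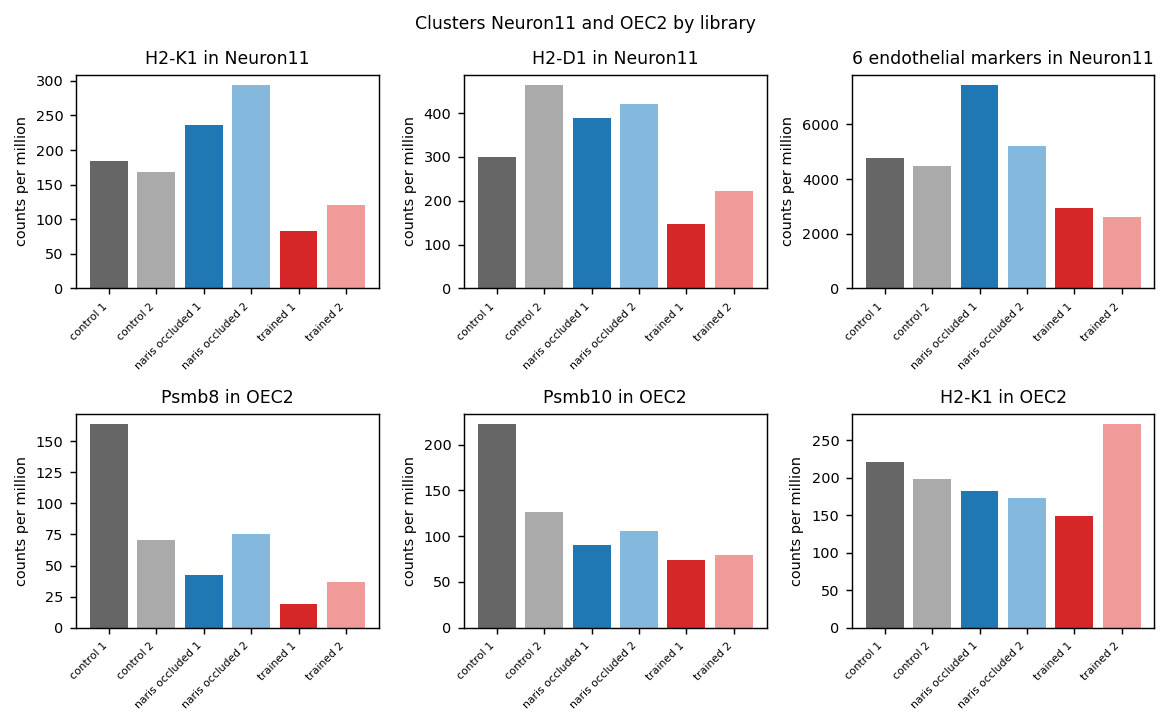
CPM by library, as bars from 0, of H2-K1, H2-D1 and the sum of 6 endothelial markers in cluster Neuron11, and of Psmb8, Psmb10 and H2-K1 in cluster OEC2. In Neuron11 both trained bars are the lowest for all 3 quantities; in OEC2 control library 1 is the highest for Psmb8 (164 CPM) and Psmb10 (223 CPM).

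In OEC2 (1740 cells) 2 of 22 members tested fell in trained against control mice, where 0.296% of genes were called and 0.245% were called lower. Psmb8 was at 164, 70.7, 42.7, 75.2, 18.8 and 37.1 CPM (log2 difference -2.11 ± 0.36, edgeR adjusted p 0.00549). Psmb10 was at 223, 127, 90.0, 105, 73.5 and 79.5 CPM (log2 difference -1.22 ± 0.22, edgeR adjusted p 0.00662). Both trained values lie below both control values, and control library 1 lies far above every other library. Naris occluded mice also had lower values than the control, with log2 differences of -1.09 ± 0.29 for Psmb8 (edgeR adjusted p 0.341) and -0.88 ± 0.20 for Psmb10 (edgeR adjusted p 0.185). Like these genes, further members were lower in that contrast at an unadjusted p under 0.05, and none was higher. They were, with log2 differences, B2m (-0.49), H2-D1 (-0.56), H2-T22 (-0.82), H2-T23 (-0.77), H2-Q4 (-1.20), Tap1 (-0.93) and Tap2 (-0.59). Their edgeR adjusted p-values were 0.407 to 0.998, and the share of all genes at such a p is not given for this contrast. Neither of the calls for trained mice was made without control library 1, without trained library 1 or by DESeq2, while 7, 6, 5 and 5 members were called without control library 2, naris occluded libraries 1 and 2 and trained library 2, where 0.683%, 0.77%, 0.637% and 0.691% of genes were called. For trained mice there were 9 members at an unadjusted p under 0.05, all lower, or 40.9% against 5.82% of the genes of the cluster. Beside the 2 called they were Tap1 (log2 difference -1.99 ± 0.52), Psmb9 (-1.78 ± 0.56), Tap2 (-0.96 ± 0.30), Psme1 (-0.45 ± 0.18) and the heavy chains H2-T22 (-0.80 ± 0.24), H2-T23 (-0.72 ± 0.30) and H2-Q4 (-0.96 ± 0.41), with edgeR adjusted p-values of 0.125 to 0.764. The constitutive subunits summed to 656, 677, 655, 685, 747 and 631 CPM, and the classical heavy chain H2-K1 had a log2 difference of -0.02 ± 0.18.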

How the data were processed

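Single-cell libraries of mouse olfactory bulb were used as deposited: per the submitters' processing notes the authors used Cell Ranger 2.0.0 with mm10 and Seurat 2.2.1, and per the methods they kept cells with at least 200 genes and removed doublets, so no doublet caller was run. The deposited table holds raw UMI counts per gene and cell. The authors' cell table gives the cluster, the library and the mitochondrial share as a fraction, which is shown here as a percent. Of 52549 barcodes, 51426 have a cluster and 1123 do not. There were 0 annotated cells under 500 UMIs, and 1461 barcode sequences occur in more than 1 library (2956 cells). Cells were assigned to libraries by the library column of the cell table; for the trained libraries the prefix of the cell name carries the other number, and Xist and Ddx3y UMIs go with the column.

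Counts were summed per class and library and scaled to CPM. Tests used edgeR 4.0.16 (limma 3.58.1, R 4.3.3): TMM, filterByExpr, a fit of all 6 libraries by group, quasi-likelihood F tests and Benjamini-Hochberg adjustment within a class and contrast. DESeq2 1.42.0, RLE factors, library sizes alone, no filter, cells of at least 1000 UMIs, mitochondrial and hemoglobin genes left out, single clusters (at least 10 cells in every library), a replicate block and leaving out each library were alternatives. Other steps used Python 3.11.15, numpy 2.4.6, pandas 2.3.3, scipy 1.17.1 and matplotlib 3.10.9. Shares of UMIs were computed from summed counts; any intervals are exact 95% intervals and cover counting error only.

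The test was tried on simulated data in which 200 genes changed by 1 on the log2 scale between trained and control. It recovered 46% of them in MicroG (8973 genes), 43% in EC (9396 genes), 64.5% in Neuron (13242 genes) and 2% in Mono (3059 genes); of its calls 5.155%, 8.511%, 6.522% and 20% (1 call) were unchanged genes.

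The members and gene lists were chosen with earlier results of these data known. Named are members called in any class, up to 4 members of each role with the most UMIs, H2-Ke6, the 10 genes most like Cd74 and H2-K1, and of the related lists the called genes and those with the most UMIs. Further members were named after their values were seen. The promoter window, the most upstream of each gene, was also chosen after seeing the data, and 8 members without an entry were not searched.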

Additional observations from a re-analysis of the deposited data

Results flagged for a closer look

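Cd74 was counted in barcodes that have no cluster in the authors' annotation and enter no comparison of the report. These 1123 barcodes hold 3019633 UMIs, and 46 Cd74 UMIs were found in 23 of them. This gives 15.234 CPM, with an exact 95% interval of 11.153 to 20.319 CPM, against a limit of 0.9935 CPM that a count of 0 would allow (3 UMIs). The annotated cells are at 232.28 CPM. The summed class I level was 1569.7 CPM in these barcodes and 1332.9 CPM in the annotated cells, and the summed class II level was 11.922 and 220.83 CPM. Groups of 2 libraries were not screened for a library far from its group.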

How the results depend on the processing

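The counts of pairs of a member and a class called (0 in each contrast) moved under 3 kinds of alternative. With no filter on low counts there were 1, 11 and 7 calls for naris occluded against control, trained against control and trained against naris occluded. Single clusters gave 3 for trained against control and 6 for trained against naris occluded. Leaving out 1 library gave 0 to 1, 0 to 5 and 0 to 4 calls in the 3 contrasts, the most without trained library 2 (5, trained against control) and without trained library 1 (4, trained against naris occluded), where the lone trained library is assumed to vary like the other groups. In Neuron11 the 6 calls became 3 with DESeq2 and 2 to 5 without 1 library. In OEC2 the 2 calls became 0 with DESeq2, 6 with no filter and 0 to 7 without 1 library. Both sets of alternatives were chosen after seeing the data. Leaving out a library also unbalances group and replicate number, which goes with Xist. The summed class II level of Mono (12154.5 CPM) was 13105.8 with mitochondrial and hemoglobin genes left out and 11296.4 as a mean of single-cell CPM, and 12012.6 to 12280.3 without 1 library. The class I level of Mono was 6087.59 to 7091.4 and that of the immunoproteasome and TAP genes 911.656 to 1008.4 without 1 library. Over the classes no member was called in the main fit, so no call could change direction, but 9 uncalled log2 differences did without 1 library. The calls in Neuron11 and OEC2 were not part of this check. For trained against control, the values without 1 library ran from -0.62 to 0.13 for B2m in EC and -1.39 to 0.016 for Psmb9 in EC (highest without trained library 1), -0.098 to 2.70 for Cd74 in Mes, -0.050 to 1.46 for Cd74 in MicroG and -0.17 to 1.69 for H2-Ab1 in MicroG (lowest without trained library 2), -2.72 to 0.066 for Ctss in MyOligo (highest without control library 2) and -6.91 to 0.34 for H2-DMa in OEC. For trained against naris occluded they ran from -0.29 to 1.58 for H2-Ab1 in MicroG and -6.96 to 0.30 for H2-DMa in OEC. H2-DMa had 0 CPM in OEC in trained library 1, so its lowest values, without trained library 2, depend on the prior count. The cause of the moved counts was not tested.

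Libraries share replicate numbers, but nothing in the labels ties a number to animals or a batch. Correlations of same-numbered deviations were over 0.1 in all 3 pairs of groups in 4 of 12 classes (0.21 to 0.26 in Neuron, 0.16 to 0.25 in OEC, 0.17 to 0.32 in Mono and 0.12 to 0.18 in Astro), and the lowest was -0.30, in RBCs. A fit with the number as a replicate block gave 0, 0 and 0 calls over the classes, 6 in Neuron11 and 2 in OEC2. The block also gave calls of B2m (edgeR adjusted p 0.0225) and H2-K1 (edgeR adjusted p 0.0262) in Neuron11 for trained against control.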

Other observations

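Class I levels went with the replicate number, a pattern noticed in the data and given as a description. The class I sum was higher in replicate 2 than in replicate 1 in 3 of 3 groups in 7 of 12 classes (Mono, MicroG, EC, OEC, Astro, Mural and Neuron) and not in Mf, Mes, MyOligo, OPC and RBCs. In MicroG it was 4961 and 6154 CPM in control, 4720 and 5298 CPM in naris occluded, and 4365 and 5723 CPM in trained mice, replicate 1 first. In EC it was 2853 and 3495 CPM, 2968 and 3188 CPM, and 2079 and 3448 CPM. H2-D1 was higher in replicate 2 in 3 of 3 groups in 9 of the 11 classes where it was tested and H2-K1 in 8 of 10, but B2m in 3 of 11. In MicroG 12 of 34 members had this order and 0 the opposite one, while 10.08% of all genes tested had it and 16.2% the opposite. In Neuron 6 of 31 members had it and 5 the opposite, with 14.9% and 9.46% of all genes. The replicate number goes with Xist. In the same order the median depth was 1743 and 1759, 2124 and 1593, and 1559 and 1881.5 UMIs per cell in MicroG, and 1360 and 1381.5, 1525 and 1197, and 1274 and 1520 UMIs in EC. Its part in the pattern was not tested, and sex and other differences between libraries numbered 1 and 2 cannot be told apart.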
